A study of Rattus norvegicus with 10 samples.

Results

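The genes described here are those of osteopontin (*Spp1*), its receptor CD44 (*Cd44*) and 8 further proteins of the cell and matrix interface: *Tnc*, *Sparc*, *Postn*, *Thbs1*, *Thbs2*, *Fn1*, *Ccn1* (also known as *Cyr61*) and *Ccn2* (also known as *Ctgf*). They were measured in mammary glands of 5 ACI rats (ACI/SegHsd) and 5 Brown Norway (BN) rats, all given 17beta-estradiol (E2) from subcutaneous implants for 12 weeks from 9 weeks of age, so that every gland was taken after the same treatment, at 21 weeks. All were female, by the labels for ACI rats and by the study's methods for BN rats. The ACI strain is known for its susceptibility to E2-induced mammary cancer and the BN strain for its resistance. Whole tissue of each rat was run on 1 Affymetrix Rat Genome 230 2.0 array, and with 5 arrays per strain the number of arrays sets how precise each value can be. For BN rats the RNA protocol in the labels speaks of ACI animals, against the strain label, which was followed here. Untreated rats were not analysed here, so nothing here measures a response to the hormone itself. In each strain the animal IDs of rats 1 to 3 open with the letter S and those of rats 4 and 5 with the letter H. What the letters stand for was not found in the labels or the methods, and they serve below only to divide the rats.

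The 10 members were chosen from the known difference between ACI and BN rats on these same arrays. Their strain difference is therefore given as a description, with values, errors and overlap but without a p-value. Of the 10 genes, 9 had at least 1 probe set annotated to that symbol alone, out of 14217 such genes on the array. *Cd44* and *Sparc* had 2 probe sets each and the other 7 had 1 each, which gave 11 probe sets. *Thbs1* had no probe set listed with that symbol alone and is named only. Values are log2 expression, in which 1 unit is a doubling, and the lowest value on any array was 2.23. A probe set is called near background in a strain where every rat of that strain lies under 4.

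Matricellular proteins are secreted into the extracellular matrix but serve less as structural parts of it than as signals to the cells that touch it. They bind integrins, syndecans, proteinases and growth factors, are low in most resting adult tissues, and rise where tissue is remodelled, wounded or inflamed. Osteopontin is a phosphorylated, integrin-binding glycoprotein made by macrophages, bone cells and several epithelia, and it was first described in mineralized matrix. CD44 is a transmembrane receptor whose main ligand is hyaluronan, and it is also known to bind osteopontin. In the mammary gland, the matrix around ducts and alveoli is rebuilt during puberty, pregnancy and involution.

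Promoter windows of the members were read as a description of the reference sequence. ACI and BN sequences were not compared, so the windows cannot bear on a difference between the strains. RefSeq (build GRCr8) gave a window of 250 bases before and 50 bases after the start of 8 of the 10 genes, and 4 of these windows are shown, each on the minus strand of its chromosome. *Spp1* (chr14:5619755-5620054) and *Cd44* (chr3:109699375-109699674) are the ligand and receptor that the values below turn on. *Ccn2* (chr1:22624565-22624864) and *Ccn1* (chr2:237225640-237225939) are shown as a pair of closely related genes, both with the higher mean in BN rats. The strains did not overlap for *Ccn2* and overlapped for *Ccn1*, and the difference between these genes was not tested. Capitals mark matches to TATAAA and to GGAATG, the core bound by TEAD factors. All TATAAA matches lay on the strand of the gene, and the GGAATG of *Ccn1* lay on the other strand, so that it stands as CATTCC.
Spp1: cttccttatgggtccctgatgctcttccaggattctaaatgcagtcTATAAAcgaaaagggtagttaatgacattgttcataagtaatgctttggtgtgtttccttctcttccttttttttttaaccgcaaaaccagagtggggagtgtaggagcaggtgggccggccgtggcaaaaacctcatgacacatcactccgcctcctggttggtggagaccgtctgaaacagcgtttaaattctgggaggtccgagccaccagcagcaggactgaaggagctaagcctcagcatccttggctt
Cd44: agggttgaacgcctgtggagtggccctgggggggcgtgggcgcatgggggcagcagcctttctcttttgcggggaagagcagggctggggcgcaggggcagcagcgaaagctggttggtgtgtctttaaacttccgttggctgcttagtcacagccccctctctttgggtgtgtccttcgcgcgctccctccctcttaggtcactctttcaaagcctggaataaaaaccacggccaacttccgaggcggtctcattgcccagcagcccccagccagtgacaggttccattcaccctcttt
Ccn2: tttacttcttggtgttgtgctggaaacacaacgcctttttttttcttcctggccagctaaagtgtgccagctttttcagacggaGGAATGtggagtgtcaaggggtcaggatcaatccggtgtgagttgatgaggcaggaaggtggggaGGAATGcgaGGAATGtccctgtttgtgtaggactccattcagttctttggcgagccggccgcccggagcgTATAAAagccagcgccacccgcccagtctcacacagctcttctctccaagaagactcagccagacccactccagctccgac
Ccn1: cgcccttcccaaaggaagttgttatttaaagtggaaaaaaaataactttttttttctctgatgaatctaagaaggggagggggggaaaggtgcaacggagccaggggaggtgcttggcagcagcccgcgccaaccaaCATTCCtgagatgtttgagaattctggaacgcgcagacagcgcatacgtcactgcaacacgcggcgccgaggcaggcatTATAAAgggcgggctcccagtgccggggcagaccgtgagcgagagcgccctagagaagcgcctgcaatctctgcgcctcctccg

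All motifs, TATAAA included, were searched on both strands, in the 8 windows and in the full set of windows. TATAAA was found 31 bases before the start of *Ccn2*, 34 bases before that of *Ccn1* and 44 bases before that of *Postn*. It also stood 204 bases before the start of *Spp1* and 208 bases before that of *Tnc*, and 14.2% of all 33469 windows of this length hold it. GGAATG occurred at 3 places in *Ccn2*, beginning 166, 101 and 92 bases before the start, at 1 place in *Ccn1*, 113 bases before it, and once each in *Sparc* and *Thbs1*, against 14.2% of all windows. The RUNX core TGTGGT was found in *Sparc* (17.3% of all windows) and the STAT pattern TTCNNNGAA in *Thbs1* (8.87%). The AP-1 pattern TGANTCA (7.33%), the CArG box (1.64%) and the palindromic estrogen response element, GGTCA, 3 bases of any kind and TGACC (0.0269%), were found in none of the 8 windows. *Cd44* held none of the motifs searched. GGAATG and the other motifs did not overlap in the printed windows. These matches describe letters in the windows only.

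Of the 11 member probe sets, 7 (of 6 genes) passed limma's adjusted p threshold of 0.05 in the direction of higher expression in BN rats, 0 passed in the direction of ACI rats, and 4 (of 3 genes) did not pass. Over all 31042 probe sets, 12.7% passed in either direction and 5.87% passed as higher in BN rats. Because the strain values chose the members, nothing is read from this count. The same 7 probe sets had no overlap between the 5 ACI and the 5 BN rats, against 12.3% of all probe sets, and the other 4 overlapped. The BN mean was the higher one for 10 of the 11 probe sets, and the median log2 fold change, ACI minus BN, was -1.46 over the members and 0.0 over all probe sets. The called member with the smallest change was *Postn* (1.35 log2 units in size) and the member closest to it among those not called was *Tnc* (1.02).

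**Figure D1:**
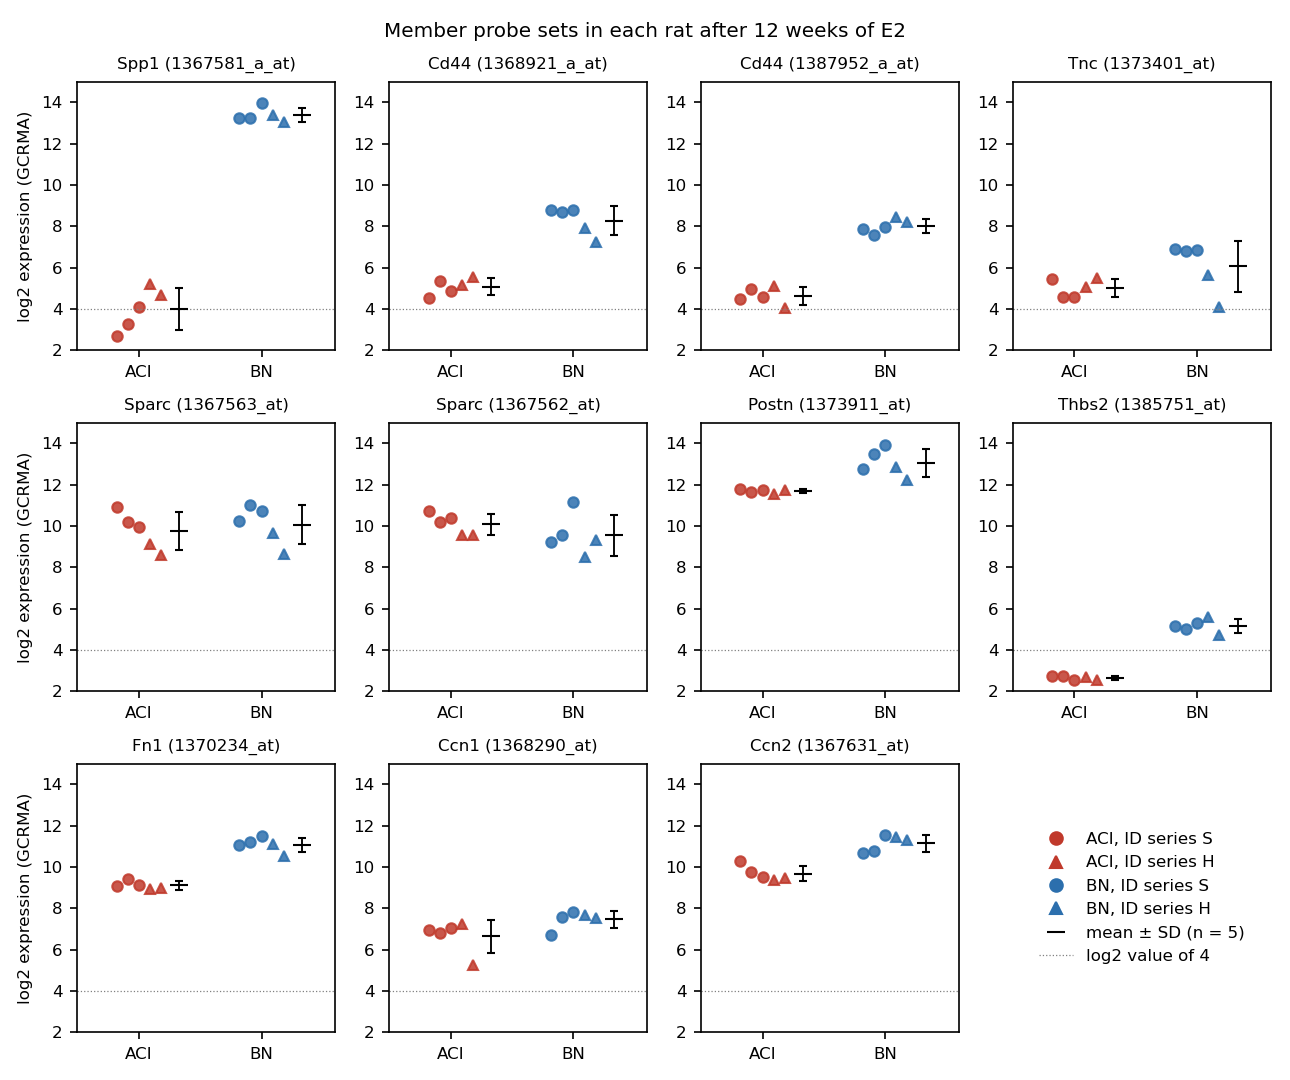
Log2 expression (GCRMA) of the 11 member probe sets in each rat, with ACI rats in red on the left and BN rats in blue on the right of each panel. Circles are rats of ID series S, triangles rats of ID series H, black marks the mean ± SD (n = 5) and the dotted line a log2 value of 4. The strains do not overlap for *Spp1*, both *Cd44* probe sets, *Postn*, *Thbs2*, *Fn1* and *Ccn2*, and they overlap for *Tnc*, both *Sparc* probe sets and *Ccn1*.

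*Spp1*, which encodes osteopontin, had the widest gap of the members. Its probe set (1367581_a_at) read 2.71, 3.28, 4.09, 5.19 and 4.70 in ACI rats 1 to 5, and 13.25, 13.22, 13.98, 13.40 and 13.06 in BN rats 1 to 5. The highest ACI rat stayed 7.87 log2 units below the lowest BN rat. Means were 3.99 ± 1.01 in ACI rats and 13.38 ± 0.355 in BN rats (SD, n = 5 each), a log2 fold change of -9.39 with a standard error of 0.468. ACI rats 1 and 2 lay in the range near background, and with all values under 4 set to 4 the log2 fold change was -8.99. The spread between ACI rats was the wider one: rats of ID series H held the 2 highest ACI values and those of ID series S the 3 lowest. In bulk tissue, fewer cells of a type and less RNA per cell cannot be told apart, which holds for this and all following values.

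*Cd44*, the receptor, was higher in BN rats on both of its probe sets, which differed in how they ordered the BN rats. Probe set 1368921_a_at read 4.53, 5.34, 4.87, 5.16 and 5.53 in ACI rats, and 8.78, 8.70, 8.78, 7.91 and 7.22 in BN rats. The strains were separated by 1.69 log2 units, and BN rats 4 and 5 were the lowest of their strain. The means were 5.09 ± 0.395 and 8.28 ± 0.696 for ACI and BN rats (SD, n = 5 each), with a log2 fold change of -3.19 (SE 0.349). Probe set 1387952_a_at read 4.47, 4.98, 4.57, 5.13 and 4.06 in ACI rats, and 7.87, 7.58, 7.96, 8.45 and 8.23 in BN rats. Here BN rats 4 and 5 were the highest of their strain and the gap between strains was 2.45 log2 units. The means were 4.64 ± 0.426 for ACI rats and 8.02 ± 0.335 for BN rats, with a log2 fold change of -3.38 (SE 0.236). *Cd44* is known for extensive alternative splicing of its variant exons, and the suffix of both names marks probes that can detect several transcripts of one gene. The exons that each probe set covers were not looked up.

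*Fn1* encodes fibronectin, a fibrous glycoprotein that joins cells to collagen through integrins. Its probe set (1370234_at) read 9.06, 9.43, 9.13, 8.92 and 8.98 in ACI rats, and 11.04, 11.19, 11.49, 11.09 and 10.53 in BN rats. Both strains were tight, and they were separated by 1.1 log2 units. The means were 9.10 ± 0.199 in ACI rats and 11.07 ± 0.348 in BN rats (SD, n = 5 each), and the log2 fold change was -1.96 (SE 0.175). *Postn* encodes periostin, a collagen-binding protein of fibroblasts. Its values were 11.77, 11.66, 11.73, 11.53 and 11.76 in ACI rats, and 12.77, 13.46, 13.93, 12.85 and 12.20 in BN rats (1373911_at). The ACI rats were nearly alike while the BN rats spread over a wider range, with BN rat 5 only 0.43 log2 units above the highest ACI rat. The log2 fold change was -1.35 (SE 0.294), from means of 11.69 ± 0.099 in ACI rats and 13.04 ± 0.668 in BN rats. *Postn* did not pass the threshold without ACI rat 4 or without BN rat 2.

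*Thbs2* encodes thrombospondin 2, a matricellular inhibitor of blood vessel growth. Probe set 1385751_at read 2.75, 2.75, 2.55, 2.70 and 2.55 in ACI rats, and 5.16, 5.04, 5.30, 5.61 and 4.73 in BN rats. It was near background in every ACI rat and above 4 in every BN rat, with a gap of 1.98 log2 units. The means were 2.66 ± 0.102 and 5.17 ± 0.324 for ACI and BN rats (SD, n = 5 each), a log2 fold change of -2.51 (SE 0.148). Since an ACI value near background is only a bound, the level in BN rats is better given as at least 2.25-fold higher, with all values under 4 set to 4 (log2 fold change -1.17).

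The CCN genes encode secreted, cysteine-rich proteins that bind integrins and heparan sulphate, and *Ccn1* and *Ccn2* are both known targets of the YAP and TEAD transcription factors. *Ccn2* (1367631_at) read 10.28, 9.76, 9.50, 9.37 and 9.46 in ACI rats, and 10.65, 10.78, 11.53, 11.45 and 11.28 in BN rats. The strains did not overlap, although ACI rat 1 came within 0.37 log2 units of BN rat 1. The means were 9.67 ± 0.368 in ACI rats and 11.14 ± 0.399 in BN rats (SD, n = 5 each), and the log2 fold change was -1.46 (SE 0.237). *Ccn1* (1368290_at) read 6.95, 6.79, 7.06, 7.22 and 5.26 in ACI rats, and 6.73, 7.56, 7.84, 7.66 and 7.52 in BN rats. BN rat 1 lay below 4 of the 5 ACI rats, so the strains overlapped. The means were 6.66 ± 0.796 in ACI rats and 7.46 ± 0.427 in BN rats, with a log2 fold change of -0.81 (SE 0.394) that did not pass the threshold. Without ACI rat 5, the lowest of all rats, the log2 fold change of *Ccn1* was -0.457 (SE 0.225). The *Ccn2* window printed above holds 3 GGAATG matches and the *Ccn1* window 1, and no binding was measured at either.

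*Tnc* encodes tenascin C, a large hexameric glycoprotein of remodelled stroma. Its probe set (1373401_at) read 5.43, 4.60, 4.59, 5.05 and 5.50 in ACI rats, and 6.88, 6.83, 6.84, 5.63 and 4.11 in BN rats. BN rats 1 to 3 stood above every ACI rat, BN rat 4 stood just above the highest of them, and BN rat 5 stood below all of them. The means were 5.03 ± 0.436 in ACI rats and 6.06 ± 1.21 in BN rats (SD, n = 5 each), with a log2 fold change of -1.02 (SE 0.561) that did not pass the threshold. It passed without BN rat 5, and also without BN rats 4 and 5.

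*Sparc* encodes osteonectin, a collagen-binding matricellular protein of fibroblasts and endothelium, and it was the member with no strain separation on either probe set. Probe set 1367563_at read 10.90, 10.21, 9.96, 9.12 and 8.61 in ACI rats, and 10.23, 11.03, 10.73, 9.65 and 8.65 in BN rats, with a log2 fold change of -0.30 (SE 0.571). Probe set 1367562_at read 10.74, 10.17, 10.37, 9.57 and 9.58 in ACI rats, and 9.22, 9.54, 11.16, 8.49 and 9.33 in BN rats, with a log2 fold change of 0.54 (SE 0.483). The probe sets differed in sign, and neither passed the threshold. On the first of them the H rats were the lowest 2 of each strain.

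The members also varied between the rats of one strain. The SD was larger in BN than in ACI rats for 8 of the 11 probe sets. BN rat 3 lay above the mean of its strain for 10 of the 11, and BN rats 1 and 5 lay below it for 8 of the 11 each. These counts describe single animals and carry no test.

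The division of the rats by animal ID was not used to choose the members, so it can be tested. With strain kept in the model, the ID series H minus S difference of every member probe set missed the threshold, as did that of all 31042 probe sets (0 called, 0%, limma with Benjamini-Hochberg adjustment). At an unadjusted p under 0.05, 3 member probe sets passed, against 8.1% of all probe sets. The member with the largest difference was *Sparc* 1367563_at, which was lower in H rats by a log2 fold change of -1.50 (SE 0.284, unadjusted p = 0.00094, adjusted p = 0.464). The second *Sparc* probe set had -0.96 (SE 0.39, adjusted p = 0.603) and *Fn1* had -0.34 (adjusted p = 0.609). *Spp1* had 0.67 (SE 0.446, adjusted p = 0.727).

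The strain difference was then compared between the ID series, as the interaction of strain and series. Here 0 of the 11 member probe sets and 2.76% of all probe sets passed at an adjusted p under 0.05, while 3 members and 17.78% of all probe sets had an unadjusted p under 0.05. Within series S (3 rats per strain) and within series H (2 rats per strain), ACI minus BN was -10.12 (SE 0.451) and -8.28 (SE 0.275) for *Spp1*, an interaction of -1.84 (SE 0.627, unadjusted p = 0.0242, adjusted p = 0.19). For *Tnc* it was -1.98 (SE 0.267) within S and 0.40 (SE 0.73) within H, an interaction of -2.38 (SE 0.669, unadjusted p = 0.0107, adjusted p = 0.126). For *Tnc* the sign within H was the opposite of that within S, but with 2 rats per strain in H the interaction did not pass, whereas *Spp1* had a negative value in both series. With values under 4 set to 4, which affects *Spp1* in ACI rats 1 and 2, the *Spp1* interaction was -1.17 (limma adjusted p = 0.205).

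For *Cd44* the probe sets parted again. On 1368921_a_at the strain difference was -3.84 (SE 0.226) within S and -2.22 (SE 0.36) within H, with an interaction of -1.62 (SE 0.408, unadjusted p = 0.00647, adjusted p = 0.0981). On 1387952_a_at it was -3.13 (SE 0.185) within S and -3.74 (SE 0.503) within H, with an interaction of 0.62 (SE 0.462, adjusted p = 0.554). Over 15 alternative settings the adjusted p of the interaction ran between 0.0314 and 0.268 for *Cd44* 1368921_a_at, between 0.0121 and 0.319 for *Tnc* and between 0.0573 and 0.401 for *Spp1*. The threshold was passed by *Cd44* 1368921_a_at and *Tnc* when probe sets with a mean under 4 were left out (0.0314 and 0.0334 in that order). Both also passed when BN rat 4 was left out (0.0338 and 0.0121 in that order), and *Tnc* alone with each array centred (0.0452). The share of all probe sets that passed in these settings was not counted. *Fn1* differed little between series (-2.03 within S, -1.86 within H), and *Postn* (-1.67 within S, -0.88 within H) and *Ccn2* (-1.14 within S, -1.95 within H) kept their direction in each. Of the 11 member probe sets, 7 passed the threshold within S (*Tnc* in and *Ccn2* out, compared with all rats). Within H, 0 passed and 6 had an unadjusted p under 0.05. Of all 31042 probe sets, 4855 passed within S and 100 within H, where 4358 had an unadjusted p under 0.05. Few probe sets of any kind passed within H, with 2 rats per strain, so 7 against 0 is not read as a property of the members.

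**Figure D2:**
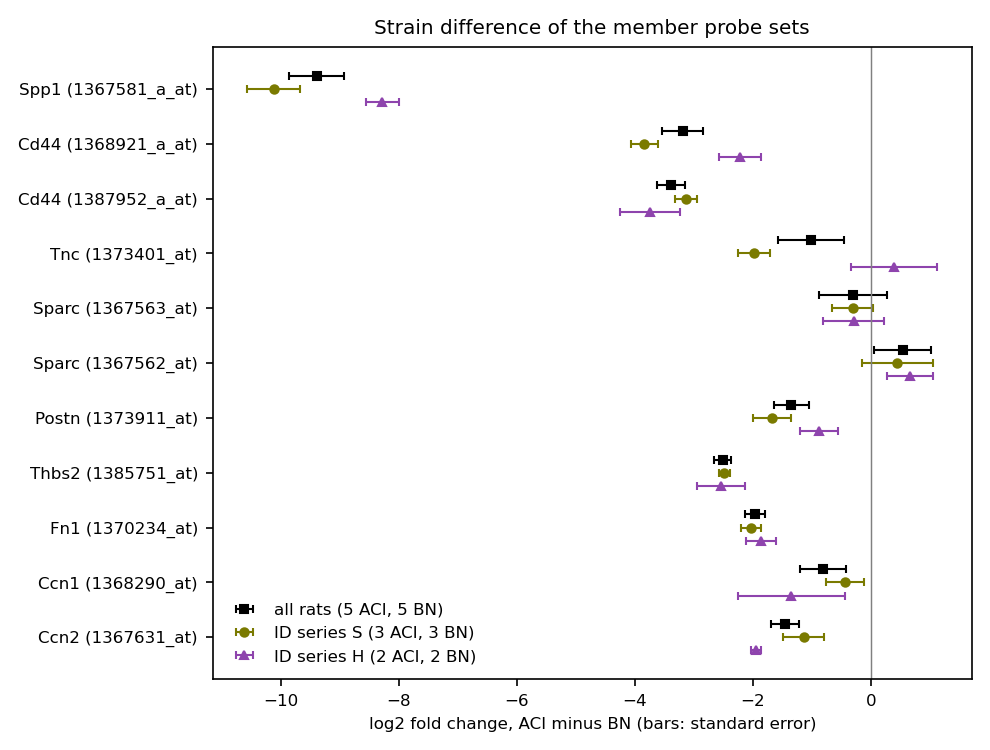
Log2 fold change of each member probe set, ACI minus BN, with its standard error, over all rats (black squares), within ID series S (olive circles) and within ID series H (purple triangles). Values left of 0 are higher in BN rats, *Spp1* lies at -9.39 over all rats, and *Tnc* lies at -1.98 within S and 0.40 within H.

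Other genes of the same pathways were taken from 5 lists, 84 genes of which 77 had a probe set, with each gene represented by its probe set of highest mean. These genes did not choose the members, but the lists were written with earlier results of these data known. Of the 77 genes, 5 were called higher in ACI rats and 21 higher in BN rats at a limma adjusted p under 0.05, against 8.29% of all 14217 genes called higher in ACI rats and 9.12% called higher in BN rats. The median log2 fold change was -0.34 over the 77 genes and 0.0 over all genes. Leaving out each rat in turn, 18 of the 26 kept their call in all 10 fits. Of the genes named below, *Acp5* and *Sdc4* kept it in 3 of the 10 and *Mmp12*, *Srgn* and *Eng* in 2 of the 10.

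Among the relatives of osteopontin and the enzymes that act on it, 2 of 12 genes were higher in ACI rats. In BN rats 3 were higher, and 7 were not called. The median log2 fold change was 0.0, and 6 of the 12 were near background in both strains. The 3 genes higher in BN rats encode matrix metalloproteinases, whereas a further one of the list, *Mmp3*, was near background in both strains (-0.16, SE 0.154, adjusted p = 0.596). *Mmp7*, matrilysin, read 2.37 in all 5 ACI rats and averaged 9.83 ± 0.44 in BN rats (SD, n = 5, log2 fold change -7.46, SE 0.192, adjusted p = 3.28e-07). With values under 4 set to 4 it was at least 56.8-fold higher in BN rats. *Mmp9*, gelatinase B, was near background in ACI rats and averaged 4.64 ± 0.753 in BN rats (-2.41, SE 0.328, adjusted p = 0.00217), at least 1.64-fold higher in BN rats. *Mmp12*, the macrophage elastase, averaged 11.12 ± 0.237 in ACI rats and 12.51 ± 0.765 in BN rats (-1.39, SE 0.349, adjusted p = 0.0347). *Fam20c*, the kinase that phosphorylates osteopontin and many other secreted proteins, was higher in ACI rats, at 10.61 ± 0.238 against 9.22 ± 0.583 in BN rats (1.39, SE 0.275, adjusted p = 0.0127). *Acp5*, a phosphatase known to act on osteopontin, was also higher in ACI rats (0.78, SE 0.197, adjusted p = 0.0348). The family members *Ibsp* and *Dmp1*, and *F2*, which encodes prothrombin, the precursor of another enzyme that cleaves osteopontin, lay at the lowest value of 2.23 in every rat.

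Osteopontin and several matricellular proteins bind cells through integrins, which are pairs of one alpha and one beta chain. Of 11 integrin chains measured, 4 were higher in BN rats and 0 in ACI rats, with a median log2 fold change of -0.64. The named chains follow in the order of their fitted change, which for *Itgam* rests on ACI values near background. *Itgb2*, the beta chain of leukocyte integrins, averaged 6.04 ± 0.232 in ACI rats and 8.97 ± 0.453 in BN rats (-2.94, SE 0.222, adjusted p = 0.000134). *Itgb3*, partner of *Itgav* in the classical osteopontin receptor, averaged 3.81 ± 0.342 in ACI rats and 6.70 ± 1.02 in BN rats (-2.89, SE 0.469, adjusted p = 0.00509). Only ACI rat 5 (4.39) lay above 4 among the ACI rats. With values under 4 set to 4, *Itgb3* was at least 6.14-fold higher in BN rats (-2.62). *Itgam*, the alpha chain of the macrophage integrin, lay at 2.39 in every ACI rat and averaged 5.10 ± 0.413 in BN rats (-2.71, SE 0.18, adjusted p = 7.39e-05), at least 2.14-fold higher in BN rats (-1.1 with values under 4 set to 4). *Itga2b*, the platelet alpha chain that pairs with *Itgb3*, lay at 2.23 in every rat. The widely expressed chains *Itgav* (-0.49, adjusted p = 0.512) and *Itgb1* (-0.57, adjusted p = 0.149), and the epithelial *Itgb6* (-1.37, SE 0.444, adjusted p = 0.0866), did not pass. *Itga2b*, *Itgav*, *Itgb1*, *Itgb6*, *Mmp3* and *Rdx*, like the genes at 2.23 in every rat, lie outside the naming rule and were added after their values were seen.

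Of 19 measured genes for hyaluronan metabolism and other partners of CD44, 4 were higher in BN rats, 1 was higher in ACI rats and 14 were not called, with a median of -0.34. *Lyve1*, a hyaluronan receptor of lymphatic endothelium and some macrophages, averaged 8.02 ± 0.57 in ACI rats and 10.41 ± 0.403 in BN rats (-2.38, SE 0.304, adjusted p = 0.00161). *Srgn*, which encodes the leukocyte proteoglycan serglycin, a CD44 ligand, averaged 10.12 ± 0.141 in ACI rats and 11.62 ± 0.773 in BN rats (-1.50, SE 0.343, adjusted p = 0.0239). Of the 3 linkers that tie the CD44 tail to actin, 1 was higher in each strain and 1 was not called. *Msn*, moesin, the form prominent in leukocytes and endothelium, was lower in ACI rats (-1.28, SE 0.195, adjusted p = 0.00366), and *Ezr*, ezrin, the epithelial form, was higher in ACI rats (0.80, SE 0.097, adjusted p = 0.00129). *Rdx*, radixin, averaged 10.30 ± 0.143 in ACI rats and 10.30 ± 0.11 in BN rats (0.0, SE 0.079, adjusted p = 1).

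The other matricellular proteins showed 8 of 22 genes higher in BN rats, 0 higher in ACI rats and a median of -0.42, and 7 of the 22 were near background in both strains. *Thbs4*, a thrombospondin of muscle, tendon and vessels, averaged 2.29 ± 0.033 in ACI rats and 5.0 ± 1.02 in BN rats (-2.71, SE 0.444, adjusted p = 0.00526), and *Fbln1*, fibulin 1, averaged 2.24 ± 0.016 in ACI rats and 4.40 ± 0.809 in BN rats (-2.16, SE 0.353, adjusted p = 0.00523). Both were near background in every ACI rat, and the bounds were at least 2.18-fold and at least 1.4-fold higher in BN rats. *Tgfbi*, a TGF-β-induced integrin ligand, was well above background in both strains, at 9.44 ± 0.17 in ACI rats and 11.12 ± 0.407 in BN rats (-1.69, SE 0.192, adjusted p = 0.000979). In the list of remaining receptors, which also holds a collagen receptor, 2 of 13 genes were called higher in each strain. *Sdc4*, syndecan 4, a fibronectin co-receptor (0.97, SE 0.225, adjusted p = 0.0249), and *Cd47*, a thrombospondin receptor (0.77, SE 0.118, adjusted p = 0.00395), were higher in ACI rats. *Eng*, endoglin, a TGF-β co-receptor of endothelium (-1.74, SE 0.42, adjusted p = 0.0292), and *Ddr2*, a fibrillar collagen receptor of stromal cells (-1.54, SE 0.268, adjusted p = 0.00699), were higher in BN rats.

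**Figure D3:**
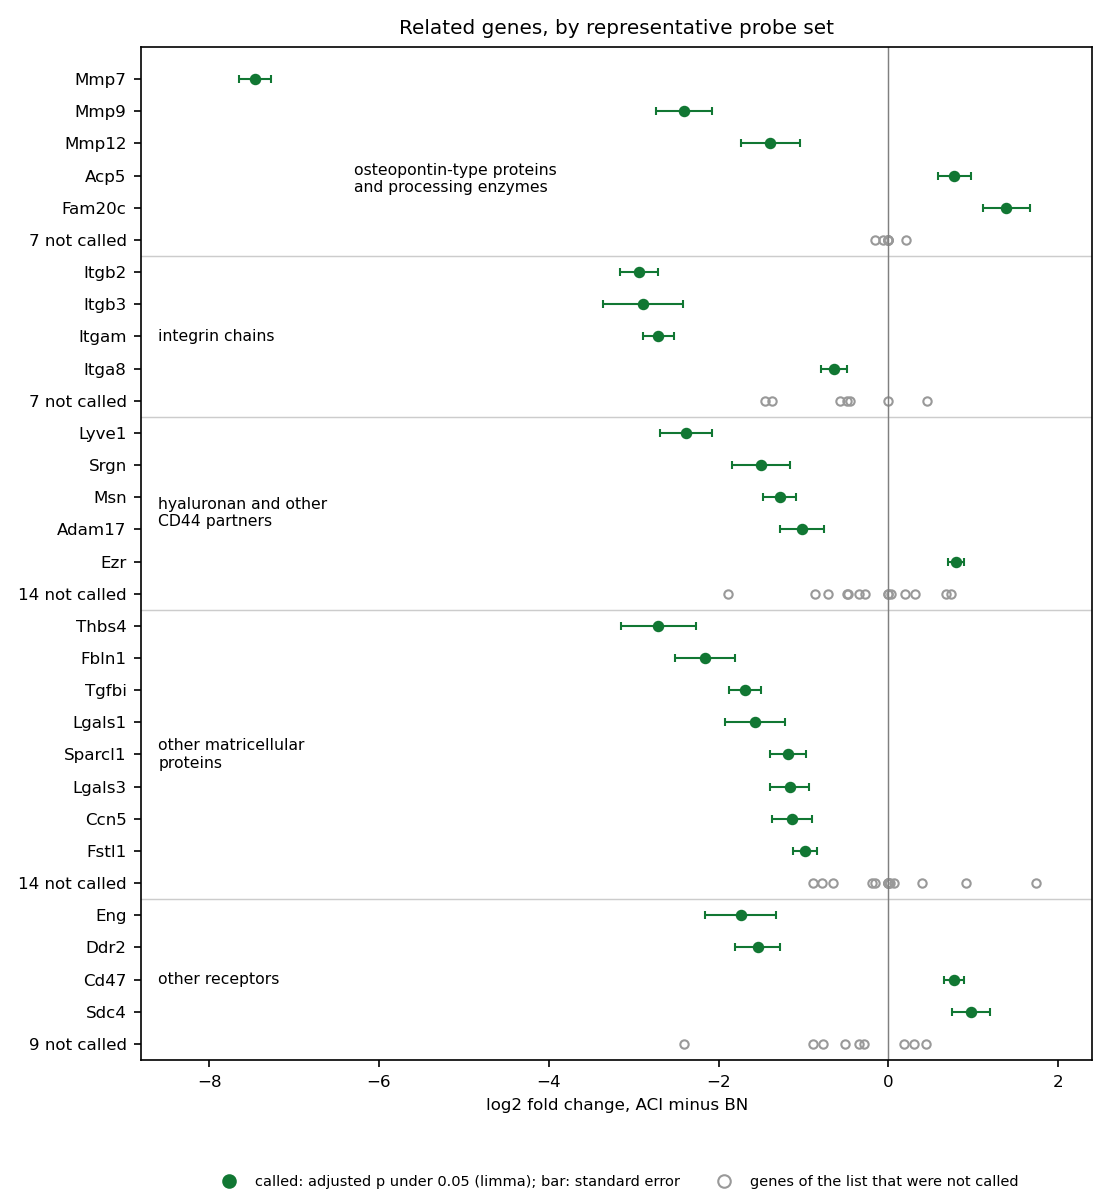
Log2 fold change (ACI minus BN) of the 77 related genes in 5 lists, one row for each of the 26 called genes with its standard error (filled) and one row per list for the genes that were not called (open). Called genes left of 0 are higher in BN rats (21) and those right of 0 higher in ACI rats (5), with *Mmp7* farthest out at -7.46.

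Likeness to *Spp1* and *Cd44* was measured over all 10 arrays as the root mean square difference between centred profiles, among 14208 genes that are not members. The genes nearest *Spp1* were *Mmp7* (1.17 log2 units), *Lcn2*, a siderophore-binding lipocalin of neutrophils and inflamed epithelium (1.25, log2 fold change -8.35), and *Cxcl13*, a chemokine that attracts B cells (1.52, log2 fold change -7.10). For *Cd44* the probe set of higher mean, 1368921_a_at, was used, and the nearest genes were *Slc47a1*, a transporter of organic cations (0.296, log2 fold change -3.05), *Itgb2* (0.315) and *Rgs18*, a G protein regulator of platelets and leukocytes (0.323, log2 fold change -2.87). BN rat 5 was the lowest BN rat on this probe set (7.22) and for each of these genes. On the other *Cd44* probe set, 1387952_a_at, it was among the highest (8.23), and genes nearest that probe set were not sought. *Mmp7* and *Slc47a1* were near background in every ACI rat, and with values under 4 set to 4 their log2 fold changes were -5.83 and -1.36 (at least 2.57-fold higher in BN rats for *Slc47a1*), so their rank among the 3 is not read further. Since profiles keep their scale, a gene can lie near only with a strain difference of like size, and the measure carries no test.

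Markers of cell types were read in the same rats, since many members are made by stroma and leukocytes, as the mean log2 value of each list. The lists of leukocytes and vessels were higher in BN rats. B and plasma cell markers lay between 3.23 and 3.48 in ACI rats and between 5.22 and 9.68 in BN rats, with 4 of 4 genes called. Of these genes, *Ms4a1*, *Mzb1* and *Cd79b* were near background in every ACI rat. For *Ms4a1* and *Cd79b* the strains overlapped, as BN rat 3 also lay near background. T cell markers lay between 4.74 and 5.28 in ACI rats and between 5.49 and 8.0 in BN rats, with 3 of 6 called. Macrophage markers, the list of a cell type known to make osteopontin, lay between 8.88 and 9.37 in ACI rats and between 9.52 and 10.14 in BN rats, with 4 of 9 called. Endothelial markers lay between 6.96 and 7.66 in ACI rats and between 8.29 and 9.26 in BN rats, with 3 of 5 called. None of these called genes was higher in ACI rats, but some uncalled genes of the lists went the other way or differed little. *C1qb* of the macrophage list was higher in ACI rats (1.20, SE 0.332, adjusted p = 0.0502), and *C1qa* (0.11) and *Cd14* (0.09) differed little. Of the T cell list, *Cd4* was higher in ACI rats by 0.86 (SE 0.38, adjusted p = 0.207), or by 0.04 with values under 4 set to 4. *Cd8a* differed by 0.10.

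Fibroblast markers lay between 10.48 and 10.79 in ACI rats and between 10.60 and 12.44 in BN rats, with 1 of 6 called, and adipocyte markers between 8.92 and 10.09 in ACI rats and between 9.82 and 10.52 in BN rats, with 1 of 5 called. Luminal markers lay between 10.82 and 11.14 in ACI rats and between 9.79 and 10.82 in BN rats, with 3 of 8 called, all higher in ACI rats, and basal markers between 8.31 and 8.74 in ACI rats and between 7.81 and 8.45 in BN rats, with 1 of 7 called, higher in ACI rats. The largest luminal difference was that of the uncalled *Prlr* (2.57, SE 0.756, limma adjusted p = 0.0619). *Krt8* differed by 0.22, and *Krt19* was slightly higher in BN rats (-0.18). In the basal list *Krt17* (-0.26) and *Krt14* (-0.22) were slightly higher in BN rats, and the other uncalled genes were higher in ACI rats. Epithelial and fat markers were thus present in both strains, as the tissue label says, although *Esr1* and *Lep* lay under 4 in every rat. Skeletal muscle markers varied widely in each strain, between 8.40 and 12.38 in ACI rats and between 5.04 and 11.37 in BN rats, with 0 of 5 called. The mean of this list was 3.06 log2 units higher in ACI rats. BN rats 1 (5.08) and 3 (5.04) lay below every ACI rat, whereas BN rat 5 (11.37) lay above ACI rats 1, 3 and 5. BN rat 3 was the highest BN rat for *Spp1*, *Postn*, *Fn1*, *Ccn1* and *Ccn2*. It had the highest fibroblast (12.44) and macrophage (10.14) levels of all rats. Its luminal (10.82) and basal (8.45) levels were also the highest of its strain, and its skeletal muscle level (5.04) was the lowest of all rats. Its B and plasma cell (5.22) and T cell (5.49) levels were the lowest of its strain. In this rat *Ms4a1* read 2.23 and *Cd79b* 2.24. *Jchain* read 10.41 there, against 10.45 to 10.93 in the other BN rats, and *Mzb1* read 6.02, above BN rat 5 (5.92). The part of these marker differences in the member values was not tested.

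**Figure D4:**
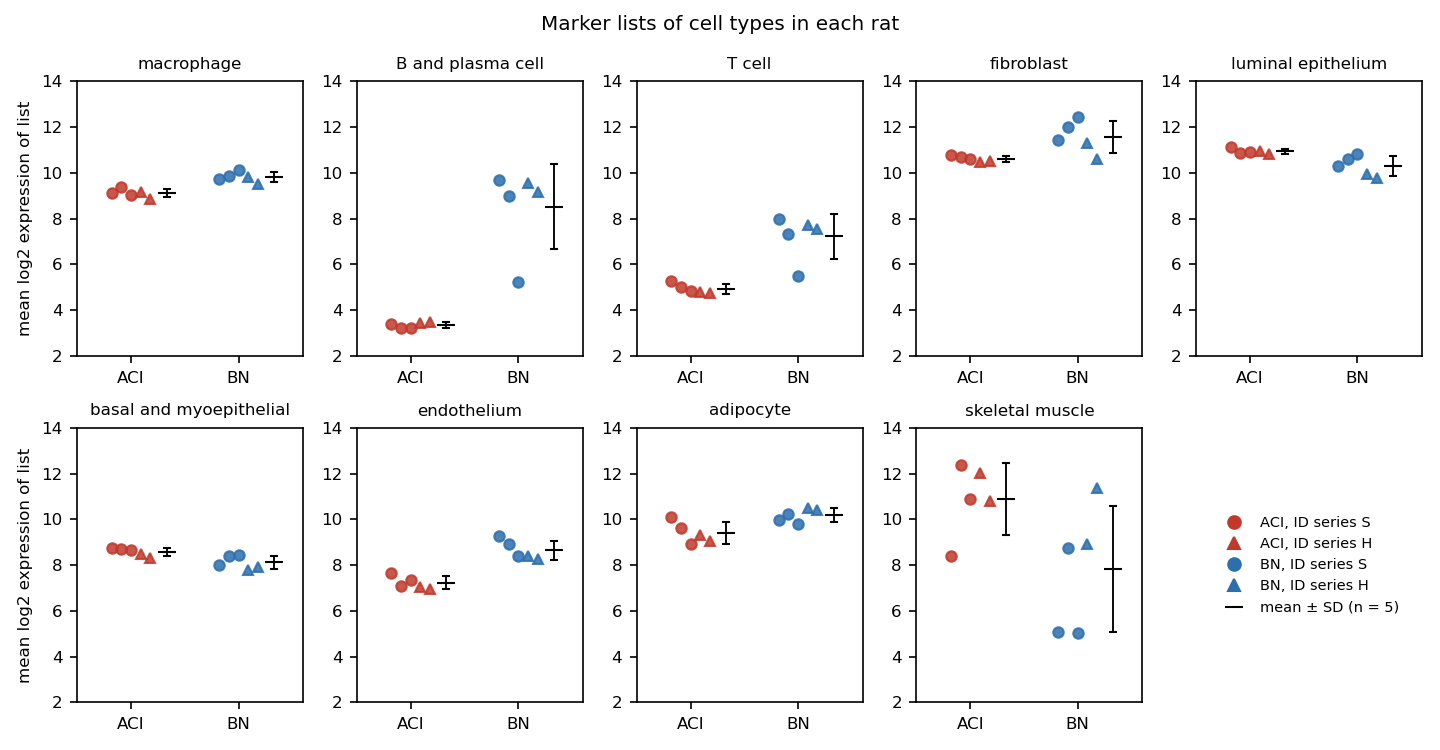
Mean log2 expression of 9 marker lists in each rat, ACI rats in red on the left and BN rats in blue on the right of each panel, circles for ID series S, triangles for ID series H, and black marks for the mean ± SD (n = 5). The mean level of B and plasma cell markers does not overlap between strains, and BN rat 3 is the lowest BN rat for it (5.22). Skeletal muscle markers range between 8.40 and 12.38 in ACI rats and between 5.04 and 11.37 in BN rats.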

How the data were processed

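The authors made the values with GCRMA 2.18.1, named in the submitters' processing notes, which corrects background by probe sequence and normalizes arrays together; the deposited values are log2 expression per probe set. Whether all 10 arrays were normalized in 1 run is not given in these sources. Each strain has its own block of sample numbers, so deposit and strain cannot be told apart. Of 31099 probe sets, 57 controls were left out. Symbols came from the platform annotation (20826 probe sets with 1 symbol, 436 with several, 9780 with none), and 20758 were updated by gene ID from RefSeq. Array medians were 3.35 to 3.53. Correlations between arrays were 0.9813 to 0.9947 among ACI rats, 0.9566 to 0.9923 among BN rats and 0.9353 to 0.9599 between strains.

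The values were fitted with limma 3.58.1 in R 4.3.3, with strain, with strain and ID series, or with their interaction, and p-values were adjusted by Benjamini-Hochberg over 31042 probe sets. The fits were tested on simulated data. Alternatives were a replicate block, the ID series as a block or alone, a filter and a floor at 4, quantile normalization, centring, the methods' t-test, trended and robust variance, the mean over a gene's probe sets, leaving out each rat and, chosen after seeing the data, leaving out BN rats 4 and 5. The members and lists were chosen with earlier results of these data known. Text names every member probe set, up to 3 called genes per list and direction with the largest change, and the 3 nearest profiles of *Spp1* and *Cd44*. Promoters of *Ccn1* and *Ccn2* were added to those of *Spp1* and *Cd44* after the values were seen.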

Additional observations from a re-analysis of the deposited data

Results flagged for a closer look

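In 9 of 68 groups of 5 rats, 1 rat lay far from the other 4 by a gap test that flags about 1 group in 20 by chance, which gives 3.4 groups here. For *Ccn1*, ACI rat 5 read 5.26 while the other ACI rats read 6.79 to 7.22, and BN rat 1 read 6.73 while the other BN rats read 7.52 to 7.84. BN rat 3 stood apart for 3 related genes. It had 13.86 for *Mmp12* against 11.99 to 12.27 in the other BN rats, 10.28 for *Srgn* against 11.68 to 12.2, and 10.4 for *Tgfbi* against 11.24 to 11.35. ACI rat 5 was the lowest of its strain for *Sdc4*, at 10.89 against 11.39 to 11.57. The other 3 gaps were in values near background, where differences are small: *Mmp9* in ACI rat 5 (2.25 against 2.23), *Thbs4* in ACI rat 4 (2.23 against 2.3 to 2.31) and *Slc47a1* in ACI rat 2 (2.23 against 2.33).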

How the results depend on the processing

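The strain fit called 3930 probe sets, 7 member probe sets and 26 related genes. With a replicate block it called 1926, 5 (without *Ccn2* and *Postn*) and 13, and within ID series H alone, with 2 rats per strain, 100, 0 (6 at an unadjusted p under 0.05) and 1. Leaving out 1 rat at a time gave 2598 (without ACI rat 4) to 4618 probe sets, 6 to 8 members and 18 to 29 related genes. Without BN rats 4 and 5, an alternative chosen after seeing the data, 6350 probe sets were called. The methods' t-test called 3595 probe sets after Benjamini-Hochberg adjustment and 7434 without it, with 7 members and 26 related genes.

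The replicate numbers do not pair the rats: correlations of same-numbered deviations ran from -0.255 to 0.226, and no ACI rat correlated best with the BN rat of its own number. The interaction of strain and ID series called 0 members in the reported fit, 2 with probe sets of a mean under 4 left out, 1 (*Tnc*, adjusted p = 0.0452) with each array centred, and 0 to 2 with 1 rat left out. The difference between ID series called 0 members under every alternative, and 1 to 3 at an unadjusted p under 0.05.

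Of 230 alternative values of the member fold changes, 223 lay within 1 SD of the reported value, 7 lay beyond it and 0 changed sign with a call. Those beyond were the values within a series already given for *Spp1* (-8.285 in H), *Ccn2* (-1.95 in H), *Cd44* 1368921_a_at (-3.84 in S, -2.22 in H) and *Tnc* (-1.98 in S, 0.405 in H), and *Thbs2* with the floor at 4 (-1.17). Levels under 4 limit what can be said of *Thbs2* and of *Spp1* in ACI rats.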
